A study of Homo sapiens with 6 samples.

Results

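The 10 genes described here form the MYC, MAX and MLX network: MYC, MAX, MXD1, MXD3, MXD4, MXI1, MNT, MLX, MLXIP and the network's target gene TXNIP. They were taken by gene symbol from a table of 60664 genes, each symbol matched 1 row, and all 10 were among the 14421 genes tested. The table holds RNA sequencing of 6 libraries from SW480, a widely used human cell line derived from an adenocarcinoma of the colon. All 6 libraries came from cells labelled wild type: 3 libraries received buffer and 3 received Amuc_0904, which is written like a locus tag of Akkermansia muciniphila, a bacterium of the intestine. The labels state neither dose nor duration, nor whether libraries of a group came from separate cultures, so p-values measure only the spread between these libraries.

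The proteins of this network bind DNA in pairs through a basic helix-loop-helix leucine zipper. MAX is the common partner: MYC-MAX pairs activate genes for growth and metabolism at the E-box, while MAX paired with an MXD protein, MXI1 or MNT recruits the SIN3 corepressor to the same kind of site. MLX is a second hub that pairs with MLXIP (MondoA), a sensor of glucose metabolites, and also with MXD1, MXD4 and MNT. In intestinal tumours with active Wnt signalling, MYC is a direct target of beta-catenin and TCF.

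Patterns written after motifs read by these factors were searched in the promoters of the network's own genes, and 5 of 9 genes held a match. Promoter sequences (RefSeq, GRCh38.p14, 250 bases before to 50 after the start site) were listed for 9 of the 10 genes, 13 promoters in all because MAX, MXI1 and TXNIP have several. The E-box CACGTG, which reads the same on both strands, was present in 3 of these 13 promoters (MLX, MNT and MXD4) and in 7.26% of all 35116 promoters of this length. The MLX stretch is chr17:42567030-42567075 on the plus strand, the MNT stretch chr17:2401228-2401273 on the minus strand and the MXD4 stretch chr4:2262322-2262359 on the minus strand, each shown because it holds the E-box, in capitals.
MLX: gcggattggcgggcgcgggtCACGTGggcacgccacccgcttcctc
MNT: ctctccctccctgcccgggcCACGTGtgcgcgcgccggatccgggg
MXD4: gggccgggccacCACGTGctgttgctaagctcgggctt

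The E-box began at position -50 from the start site in MLX, -193 in MNT and -238 in MXD4. A second arrangement was a search pattern written after the carbohydrate response element read by MLX pairs: CACGNG followed after 5 bases by CNCGNG. A match to this pattern does not show that a promoter holds a working element. Searched on both strands, it was found in 2 of the 13 promoters (TXNIP and MXI1) and in 0.501% of all promoters, and neither match contained the E-box. No promoter of MAX, MXD1, MXD3 or MLXIP held either arrangement. The TXNIP stretch is chr1:145996631-145996687 on the minus strand and the MXI1 stretch, whose match reads on the opposite strand, is chr10:110210141-110210197 on the plus strand. Capitals mark the arrangement.
TXNIP: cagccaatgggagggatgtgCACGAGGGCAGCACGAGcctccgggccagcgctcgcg
MXI1: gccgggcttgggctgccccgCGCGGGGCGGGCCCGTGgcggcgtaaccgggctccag

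The promoter of MXD3 is shown whole, because MXD3 was the network gene past the test's threshold. It lies at chr5:177312703-177313002 on the minus strand and held neither of these arrangements. Its capitals mark a CCAAT box on the opposite strand, a motif (CCAAT, both strands) found in 34.6% of all promoters. These matches describe letters in a window and are not evidence of binding.
MXD3: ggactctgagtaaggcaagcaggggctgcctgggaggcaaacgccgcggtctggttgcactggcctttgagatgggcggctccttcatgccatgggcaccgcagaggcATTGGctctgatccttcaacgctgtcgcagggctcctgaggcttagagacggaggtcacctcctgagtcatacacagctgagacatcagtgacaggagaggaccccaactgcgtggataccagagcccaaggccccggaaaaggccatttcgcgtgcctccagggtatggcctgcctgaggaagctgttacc

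Several properties of the libraries bear on the values below. Values are in TPM, a share of the library corrected for transcript length, so levels of different genes can be set side by side, but the read depth of each library is unknown. The epithelial markers EPCAM, KRT8, KRT18 and KRT19 were abundant, while KRT20 and CDH17 were under 1 TPM throughout. VIL1 was also scarce, at 0.69 to 1.09 TPM, and was not tested. CDH1, which encodes E-cadherin, fell, with 7.01 ± 1.20 TPM in buffer against 3.80 ± 0.246 TPM (limma adjusted p = 0.0444). CDX2, an intestinal transcription factor gene, was at 28.0 ± 5.22 and 18.7 ± 0.528 TPM without overlap (limma adjusted p = 0.0767). The 9 epithelial markers summed to 7907 to 8149 TPM with buffer and 7092 to 7380 TPM after Amuc_0904. Markers of other cell types were low: the 6 immune markers summed to 3.42 to 4.32 TPM with buffer and 5.2 to 5.84 TPM after Amuc_0904 with PTPRC at 0, the 6 fibroblast markers to at most 3.76 TPM with DCN at 0, and the 4 endothelial markers to at most 0.80 TPM with KDR at 0. Their part in the results was not tested. The slope of log2 expression with transcript GC content lay between 0.0045 and 0.093 per 10 percentage points in buffer libraries and between -0.11 and 0.0021 in treated libraries, without overlap, so treatment and this trend cannot be told apart. Ribosomal protein transcripts held 18.4% to 19.97% of TPM with buffer and 19.3% to 21.5% in treated libraries.

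MXD3, the repressor partner of MAX that is best known from dividing cells, fell in cells given Amuc_0904. The other 9 genes did not pass the test, and none rose. MYC and MLX were higher in every treated library than in every buffer library, and MNT, MXD3 and MXD1 were lower in every treated library. MAX, MXI1, MXD4, MLXIP and TXNIP overlapped between the groups. In limma with Benjamini-Hochberg adjustment over all genes, 1 of the 10 genes was past an adjusted p of 0.05, against 1.37% of all tested genes. That gene fell, as did 0.999% of all tested genes, while 0.368% rose. The 10 genes were chosen with earlier results of these data known, so these shares do not test the set. Separation without overlap was common in this table: treated libraries were all higher for 2 of the 10 genes and for 7.0% of all tested genes, and all lower for 3 of the 10 genes and for 20.1%. The median log2 fold change was -0.02 over the 10 genes, with 5 above and 5 below 0, and -0.06 over all tested genes. The median of the 10 genes was 0.06 with libraries centred on their median, against 0.02 over all genes. It was 0.05 after quantile normalization (0.0067 over all genes) and 0.06 after length removal (0.0088). Without ribosomal protein and mitochondrial genes it was 0.0063 (-0.04 over all genes), and after GC removal -0.0012 (-0.0016). Fewer cells expressing a gene and less of its RNA in each cell cannot be told apart in such bulk samples.

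**Figure D1:**
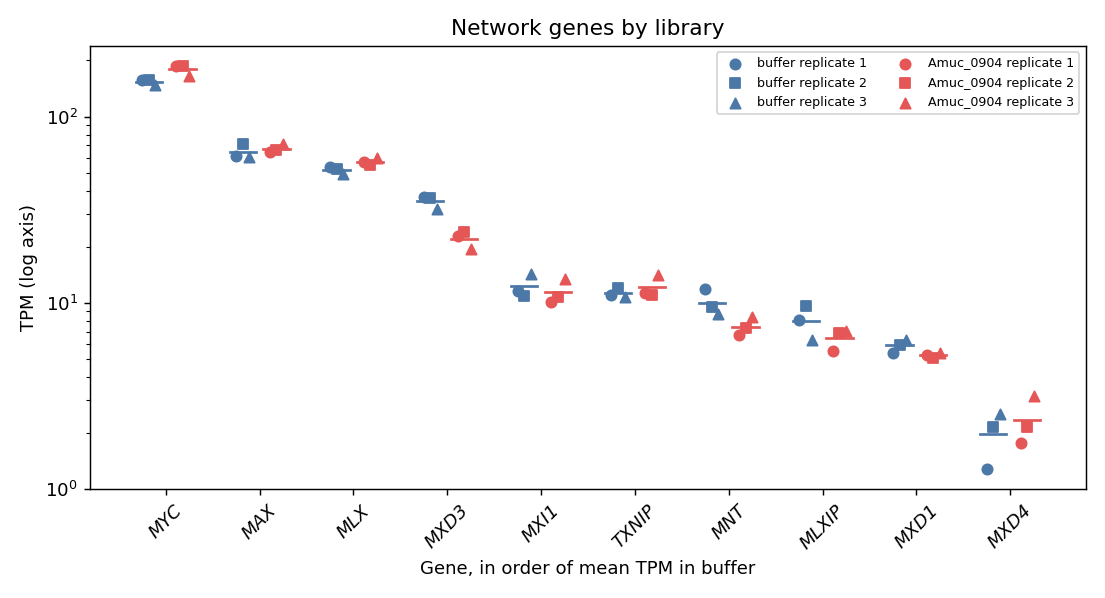
TPM of the 10 network genes in each library on a log axis, ordered by mean TPM in buffer; blue points are buffer and red points Amuc_0904 libraries, marker shapes are replicates and short lines are group means. MYC spans 148 to 187 TPM and MXD4 1.28 to 3.15 TPM, and the groups separate most for MXD3.

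The levels spanned a wide range. In buffer libraries MYC was highest at 154 ± 5.80 TPM (SD, n = 3), followed by MAX at 64.4 ± 6.03 TPM, MLX at 51.7 ± 2.06 TPM and MXD3 at 35.0 ± 2.60 TPM. The ranges of these neighbours did not overlap. MXI1, TXNIP, MNT, MLXIP and MXD1 followed between 12.3 and 5.90 TPM, and each overlapped the next in buffer libraries. MXD4 was lowest, at 1.98 ± 0.635 TPM, below the range of MXD1. The order of mean levels was the same in treated libraries except that TXNIP stood above MXI1, a pair whose ranges overlapped in both groups.

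MYC encodes the activating partner (ENSG00000136997; GRCh38 chromosome 8, 127735434 to 127741434, plus strand). It was listed at 157, 158 and 148 TPM in buffer replicates 1 to 3 and at 186, 187 and 165 TPM in Amuc_0904 replicates 1 to 3. All 3 treated libraries were above all buffer libraries, with Amuc_0904 replicate 3 closest to them. The means were 154 ± 5.80 and 179 ± 12.6 TPM, a ratio of 1.16. The difference did not pass over all genes (limma estimate 0.21 on the log2 scale, SE 0.07, 95% interval 0.06 to 0.37, unadjusted p = 0.0133, adjusted p = 0.133), and the value was 0.32 after GC removal.

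MAX, the obligate partner of MYC, had 61.4, 71.4 and 60.5 TPM with buffer and 64.8, 65.8 and 70.8 TPM after Amuc_0904. Buffer replicate 2 was the highest of the 6 libraries and the groups overlapped. The 95% interval of its log2 fold change ran from -0.12 to 0.25 (limma estimate 0.06, adjusted p = 0.706). The estimate was 0.02 without buffer replicate 3 and 0.14 without buffer replicate 2, and 0.14 with centring and 0.15 after GC removal. MAX (ENSG00000125952; chromosome 14, 65006174 to 65102695, minus strand) overlaps 4 genes on the other strand, among them FNTB, at 10.3 to 13.2 TPM. As no strand protocol is stated, reads from such neighbours cannot be told apart.

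Among the repressor partners, MXD3 (ENSG00000213347; chromosome 5, 177301461 to 177312757, minus strand) was the most abundant. Its TPM was 36.8, 36.3 and 32.1 in buffer replicates 1 to 3 and 22.7, 24.1 and 19.4 in Amuc_0904 replicates 1 to 3. The lowest buffer library was well above the highest treated library, and replicate 3 was the lowest in each group. The mean of MXD3 fell 1.59-fold and went from 35.0 ± 2.60 TPM down to 22.0 ± 2.41 TPM (limma estimate -0.65 on the log2 scale, SE 0.10, 95% interval -0.87 to -0.42, adjusted p = 0.0264). MXD3 overlaps RAB24 on its own strand and PRELID1 on the other. RAB24, a small GTPase gene, was at 26.1 ± 1.80 TPM with buffer and 22.2 ± 1.64 TPM after Amuc_0904 (limma log2 fold change -0.22, adjusted p = 0.194). PRELID1 was at 466 ± 17.3 and 411 ± 55.7 TPM (limma log2 fold change -0.19, adjusted p = 0.306), and the part of either neighbour in the MXD3 value was not tested.

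The call of MXD3 depended on scaling and on single libraries, while its direction did not. Its transcript is 61.3% GC, and with the GC trend of each library removed its log2 fold change was -0.46 (limma adjusted p = 0.062). It was -0.57 with libraries centred on their median (limma adjusted p = 0.0624) and -0.57 after quantile normalization (limma adjusted p = 0.0605). Left out singly, buffer replicate 1, buffer replicate 2 and Amuc_0904 replicate 1 each ended the call (limma adjusted p = 0.0802, 0.125 and 0.0813), with log2 fold changes of -0.61, -0.62 and -0.67. Over all 16 alternatives the value stayed between -0.71 and -0.46, and 8 of them were past the threshold. The plot of settings shows these values beside those of MNT and MYC.

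**Figure D2:**
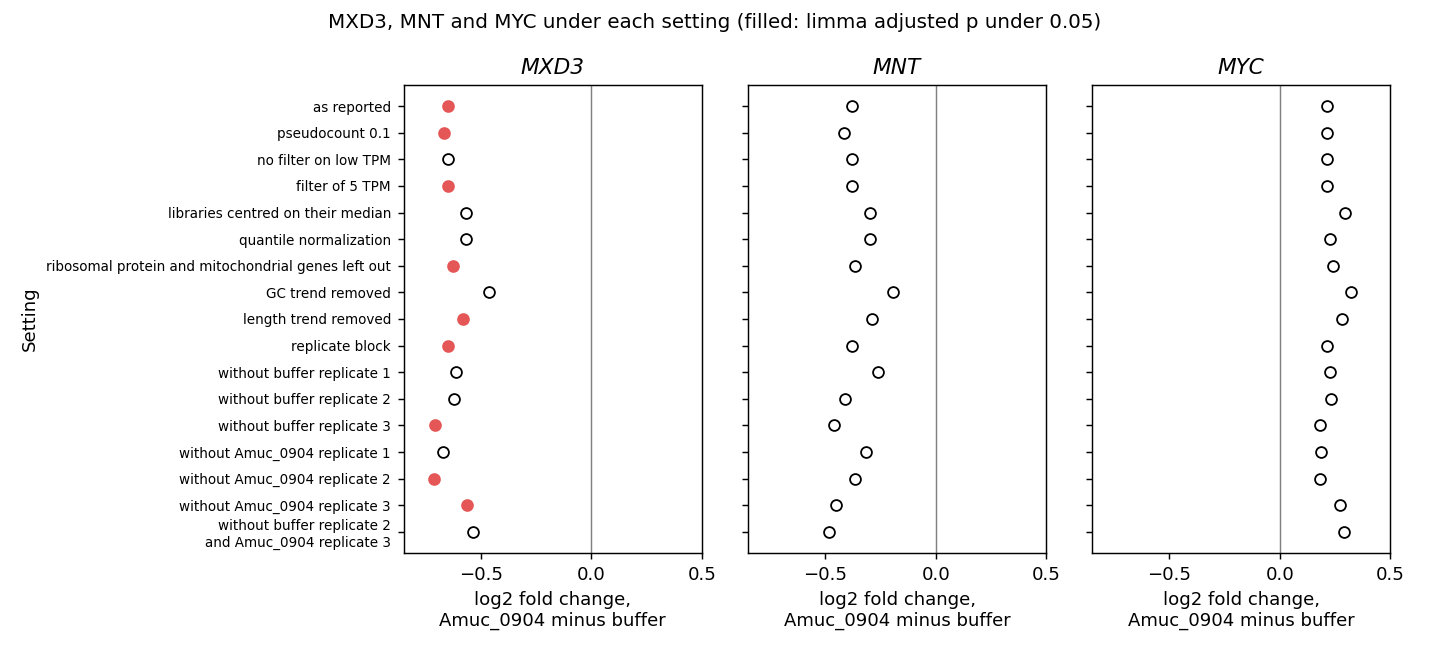
Log2 fold change (Amuc_0904 minus buffer, horizontal axis) of MXD3, MNT and MYC as reported and under 16 alternatives (rows); filled points have a limma adjusted p under 0.05. MXD3 and MNT lie below 0 and MYC above 0 in every row, and filled points occur for MXD3 alone among these 3 genes.

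MNT, a broadly expressed repressor that pairs with MAX and with MLX, was lower in treated libraries without passing the test. It was listed at 11.9, 9.48 and 8.75 TPM with buffer and at 6.74, 7.29 and 8.34 TPM after Amuc_0904. The groups did not overlap, but buffer replicate 3 and Amuc_0904 replicate 3 were close. The limma log2 fold change was -0.38 (SE 0.13, 95% interval -0.68 to -0.08, unadjusted p = 0.0196, adjusted p = 0.156). The MNT transcript is 61.4% GC, and with the GC trend removed the log2 fold change was -0.19 (limma adjusted p = 0.528). MNT (ENSG00000070444) lies on chromosome 17 from 2384060 to 2401118, minus strand, and overlaps 1 antisense gene.

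MXD1, a repressor usually linked to differentiation, was at 5.40, 5.96 and 6.33 TPM with buffer and 5.27, 5.03 and 5.39 TPM after Amuc_0904. The groups were separated by 0.01 TPM only, between buffer replicate 1 and Amuc_0904 replicate 3, which is the rounding of the table. MXI1, a close relative, was at 11.6, 10.9 and 14.3 TPM and at 10.1, 10.7 and 13.4 TPM, with replicate 3 highest in each group. MXD4 was at 1.28, 2.14 and 2.52 TPM and at 1.77, 2.14 and 3.15 TPM, and its groups overlapped across most of their range. The limma log2 fold changes were -0.14 for MXD1, -0.10 for MXI1 and 0.17 for MXD4, with adjusted p of 0.476, 0.723 and 0.693. With centring the values were -0.06 for MXD1 and -0.02 for MXI1, and after GC removal MXD4 was at 0.32. The interval for MXD4, -0.32 to 0.67, was the widest of the 10 genes, and the log2(TPM + 1) scale understates changes at such low levels. MXD1 (chromosome 2, 69897688 to 69942945) overlaps SNRNP27 on its own strand, MXI1 lies on chromosome 10 from 110207605 to 110287365, and MXD4 on chromosome 4 from 2247432 to 2262294.

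**Figure D3:**
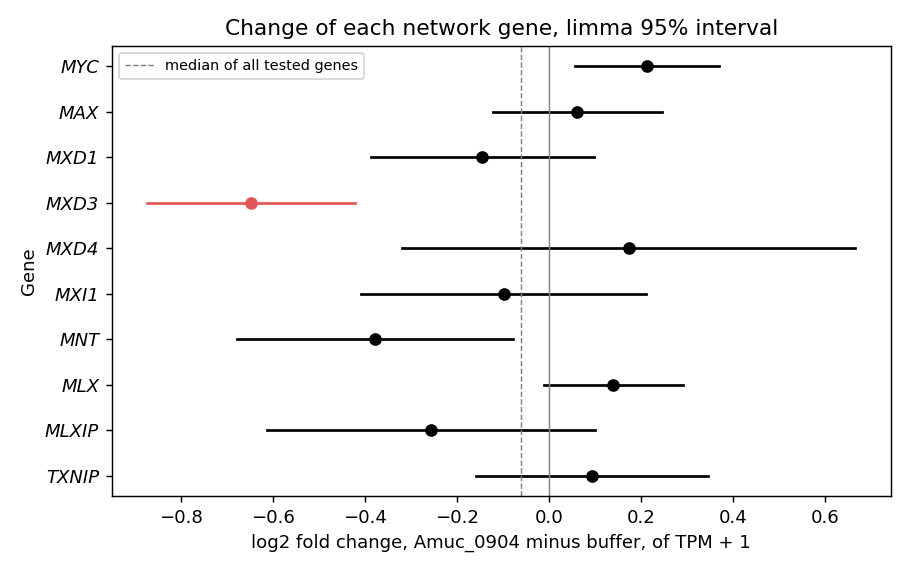
Log2 fold change of each network gene (point) with its 95% interval from limma (line), Amuc_0904 minus buffer; red marks the gene past an adjusted p of 0.05, and the dashed line is the median of all tested genes (-0.06). MXD3 sits apart at -0.65, the intervals of MYC (above 0) and MNT (below 0) leave out 0 before adjustment, and the other 7 include it.

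On the MLX side, MLX was at 53.4, 52.3 and 49.4 TPM with buffer and 56.7, 54.7 and 59.9 TPM after Amuc_0904. The groups did not overlap, and the gap between them was small beside the level. The ratio of means was 1.10 (limma log2 fold change 0.14, 95% interval -0.01 to 0.29, adjusted p = 0.275), and the log2 fold change was 0.22 with centring and 0.23 after GC removal. MLXIP, which encodes MondoA, was at 8.08, 9.64 and 6.30 TPM and at 5.53, 6.90 and 7.02 TPM, with overlapping groups (limma log2 fold change -0.26, 95% interval -0.61 to 0.10, adjusted p = 0.388). The MLXIP value was -0.13 without buffer replicate 2, -0.16 without Amuc_0904 replicate 1, -0.40 without buffer replicate 3 and -0.10 after GC removal. MLX (ENSG00000108788; chromosome 17, 42567068 to 42573239, plus strand) overlaps PSMC3IP on the other strand, which was at 43.8 to 49.7 TPM. MLXIP (chromosome 12, 122078722 to 122147347) overlaps no annotated gene.

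TXNIP, which binds thioredoxin and restrains glucose uptake, is the textbook target of MLX-MondoA pairs and carries the carbohydrate response arrangement shown above. It was at 10.99, 12.01 and 10.7 TPM with buffer and 11.3, 11.1 and 14.02 TPM after Amuc_0904. Amuc_0904 replicate 3 was the highest, and the other treated libraries lay within the buffer range. The 95% interval of its log2 fold change was -0.16 to 0.35 (limma estimate 0.09, adjusted p = 0.670). Without Amuc_0904 replicate 3 the value was -0.0067, and with centring it was 0.17. TXNIP (ENSG00000265972; chromosome 1, 145992435 to 145996600, minus strand) overlaps no annotated gene.

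The balance between MYC and the repressor partners of MAX differed between all treated and all buffer libraries. MYC made up 70.1%, 70.9% and 69.8% of the summed TPM of MYC, MXD1, MXD3, MXD4, MXI1 and MNT in buffer replicates 1 to 3. In Amuc_0904 replicates 1 to 3 it made up 80.0%, 79.1% and 76.8%. The lowest treated library was thus above the highest buffer library, and the means were 70.3% ± 0.588 and 78.7% ± 1.64 (SD, n = 3). The exact two-sided permutation test gave p = 0.1, the smallest that 3 against 3 libraries allow, and 0.3 adjusted over the 3 ratios tested, so the difference cannot pass a threshold of 0.05 in this design. The sum of the 6 genes was 219 ± 6.92 TPM with buffer and 228 ± 11.7 TPM after Amuc_0904.

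MXD3 held most of the repressor difference. Its share of the sum was 15.96% ± 0.693 in buffer and 9.67% ± 0.584 in treated libraries. The 5 repressor genes together had 65.2 ± 1.54 TPM with buffer and 48.5 ± 1.68 TPM after Amuc_0904. Without MXD3 they had 30.2, 28.5 and 31.9 TPM with buffer and 23.8, 25.2 and 30.3 TPM after Amuc_0904, ranges that overlap. RNA levels do not give the amounts of the proteins or of their pairs.

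**Figure D4:**
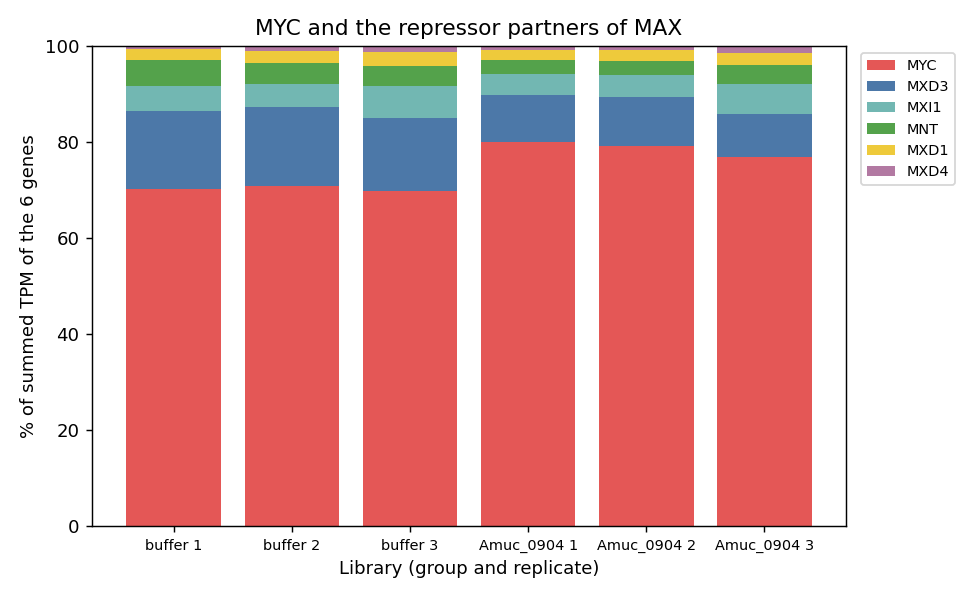
Share (%) of MYC and of each repressor partner gene of MAX in the summed TPM of these 6 genes, 1 bar for each library. The MYC share is 69.8% to 70.9% in buffer and 76.8% to 80.0% in Amuc_0904 libraries, and the MXD3 share is smaller in all Amuc_0904 bars.

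The ratio of MAX to MYC TPM was 0.39, 0.45 and 0.41 in buffer and 0.35, 0.35 and 0.43 in treated libraries. These overlapped (exact two-sided permutation p = 0.3, adjusted p = 0.4 over the 3 ratios). The ratio of MLX to MAX, the hubs of the network, was 0.87, 0.73 and 0.82 in buffer and 0.87, 0.83 and 0.85 in treated libraries, and also overlapped (exact two-sided permutation p = 0.4, adjusted p = 0.4). Neither of these ratios separated the groups.

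Genes around the network were read from 9 lists of 7 to 30 tested genes each, and 1 of their tested genes passed the test. Over all tested genes 1.37% passed. The lists were chosen with earlier results of these data known, so shares set against all tested genes are descriptive only. Classic genes activated by MYC had 30 tested members, of which 0 rose, 1 fell and 29 did not pass. The gene that fell was SLC7A5, an amino acid transporter, at 226, 266 and 229 TPM with buffer and 161, 174 and 165 TPM after Amuc_0904 (limma estimate -0.52 on the log2 scale, SE 0.08, adjusted p = 0.0214). All treated libraries were below all buffer libraries. The call of SLC7A5 ended with libraries centred on their median (-0.44, limma adjusted p = 0.0529), without a filter on low TPM (limma adjusted p = 0.115), without buffer replicate 2 (0.0612), without any single treated library (0.0546 to 0.0848), and without buffer replicate 2 and Amuc_0904 replicate 3 together (0.0848). After GC removal it was -0.34 and kept its call (limma adjusted p = 0.034). Apart from it, most of the list lay slightly above 0: 25 of 30 had a positive log2 fold change, against 37.5% of all tested genes, and the list median was 0.08, against -0.06 over all tested genes. The median stayed above 0 under each of the 5 other scalings (0.09 to 0.16).

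Among these MYC target genes, named after their values were seen, NPM1, which encodes the nucleolar protein nucleophosmin, was at 2726 ± 221 TPM with buffer and 3210 ± 126 TPM after Amuc_0904. GNL3, which encodes the nucleolar GTPase nucleostemin, was at 133 ± 11 and 157 ± 12.4 TPM, and ODC1, the first enzyme of polyamine synthesis, at 270.5 ± 5.99 and 294 ± 11.4 TPM. For these 3 genes every treated library was above every buffer library, and none passed (limma adjusted p = 0.122, 0.152 and 0.260). In this list all treated libraries were higher for 9 of the 30 tested genes and lower for 3. The shares over all tested genes were 7.0% and 20.1%. CAD, which starts pyrimidine synthesis, went the other way, at 69.5 ± 9.07 and 54.5 ± 1.37 TPM (limma adjusted p = 0.102). TERT was under the filter and BCAT1 was listed at 0 in every library.

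Genes known to be repressed by MYC had 7 tested members and none passed, with 6 below 0 and a median log2 fold change of -0.16. Over all tested genes 62.5% were below 0 and the median was -0.06. CLU, which encodes the secreted chaperone clusterin, was at 313 ± 26.4 TPM with buffer and 242 ± 11.4 TPM after Amuc_0904, without overlap (limma log2 fold change -0.37, adjusted p = 0.0548). All treated libraries were lower for 2 of the 7 tested genes and higher for 0, against 20.1% and 7.0% of all tested genes. NDRG1, a stress-responsive gene, was at 118 ± 24.4 and 131 ± 13.5 TPM with overlapping groups (limma adjusted p = 0.570). With the GC trend removed the median of these 7 genes was -0.02.

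The cofactors of the network were mostly below 0, as were 62.5% of all tested genes, and none passed. Of 13 coactivator genes used by MYC, 10 had a negative log2 fold change and the median was -0.20, and 7 had all treated libraries below all buffer libraries, against 20.1% of all tested genes. The most abundant were RUVBL2, an ATPase of the TIP60 complex, at 284 ± 11.4 and 269 ± 22.5 TPM, and ACTL6A at 175 ± 7.27 and 173 ± 9.68 TPM, with limma adjusted p of 0.549 and 0.927. Of 12 genes of the SIN3 and NCOR corepressors, 10 were below 0 with a median of -0.14. RBBP7, a histone-binding subunit, was at 222 ± 5.46 and 212 ± 14.05 TPM, and the deacetylase gene HDAC2 at 111 ± 6.54 and 112 ± 1.59 TPM (limma adjusted p = 0.589 and 0.960). With the GC trend removed the medians were -0.07 for the coactivators and -0.09 for the corepressors, and with length removal they were -0.13 and -0.05.

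Regulators of MYC protein stability had 12 tested genes, a median of -0.07 and none past the test. That median was above 0 with centring, with GC removal and with length removal. SET, an inhibitor of the phosphatase that destabilises MYC, was at 392 ± 29.9 and 441 ± 48.1 TPM, and the ubiquitin ligase gene STUB1 at 137 ± 1.22 and 126 ± 8.90 TPM (limma adjusted p = 0.328 and 0.312). All 8 Wnt effectors upstream of MYC had negative values, with a median of -0.27, and none passed the test. By comparison, 62.5% of all tested genes were below 0, with a median of -0.06. The 8 values ran from -0.47 for TCF7L2, whose groups overlapped (limma adjusted p = 0.178), to -0.08 for CTNNB1. All treated libraries were lower for 5 of the 8 genes and higher for 0, against 20.1% and 7.0% of all tested genes. MYC itself was above 0 without passing, and the relation between MYC and these genes was not tested. CTNNB1, which encodes beta-catenin, was at 476 ± 12.9 and 451 ± 31.2 TPM, and its TCF partner gene TCF7 at 46.1 ± 2.16 and 37.2 ± 4.52 TPM (limma adjusted p = 0.525 and 0.120). The Wnt median was -0.13 with the GC trend removed and stayed below 0 under the other scalings, although 1 of the 8 genes, CTNNB1, was above 0 with centring and with length removal.

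Glucose-responsive targets of MLX pairs other than TXNIP had 7 tested genes, none past the test, a median of -0.13 and 6 values below 0. Among all tested genes 62.5% were below 0, with a median of -0.06. The fatty acid synthase gene FASN was at 92.8 ± 21.6 TPM with buffer and 68.8 ± 4.43 TPM after Amuc_0904, and the desaturase gene SCD at 91.8 ± 4.31 and 81.6 ± 10.1 TPM (limma adjusted p = 0.162 and 0.318). The log2 fold change of FASN, -0.40, was -0.22 without buffer replicate 2. ARRDC4, an alpha-arrestin gene that responds to MondoA as TXNIP does, was at 1.10 ± 0.0755 and 1.22 ± 0.238 TPM and did not pass (limma adjusted p = 0.823). With the GC trend removed the median of the 7 genes was -0.03.

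Partners of TXNIP had 10 tested genes and none past the test. TXN, which encodes thioredoxin, was at 888, 764 and 866 TPM with buffer and 1080, 996 and 932 TPM after Amuc_0904, so all treated libraries were above all buffer libraries (limma log2 fold change 0.26, adjusted p = 0.123). SLC2A1, which encodes the glucose transporter GLUT1, was at 1278 ± 224 and 1004 ± 90.2 TPM with overlapping groups (limma adjusted p = 0.188). ARRDC3, an alpha-arrestin related to TXNIP and named after its values were seen, was at 8.99 ± 0.852 and 12.5 ± 1.12 TPM without overlap (limma log2 fold change 0.44, adjusted p = 0.0780). Treated libraries were all higher for 3 of the 10 tested genes and all lower for 0, against 7.0% and 20.1% of all tested genes. The list median was -0.03, and it was above 0 with centring, quantile normalization, GC removal and length removal.

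Other E-box factors and MYC-binding proteins had 9 tested genes, none past the test, and a median of -0.15, which was -0.04 with the GC trend removed and -0.07 with centring. USF2 and TFE3, leucine zipper factors that bind E-boxes without MAX, were at 116 ± 4.21 and 94.99 ± 6.35 TPM and at 42.7 ± 2.16 and 38.2 ± 0.680 TPM (limma adjusted p = 0.0780 and 0.232). Both had all treated libraries below all buffer libraries, which held for 3 of the 9 tested genes and for 20.1% of all tested genes. Treated libraries were all higher for 1 of the 9 and for 7.0% of all tested genes. That gene was MYCBP, at 19.5 ± 1.20 and 22.9 ± 0.164 TPM (limma adjusted p = 0.144). Once the GC trend was removed USF2 was at -0.12 and TFE3 at 0.0156 on the log2 scale. The MYC relatives were scarce: MYCL was at 3.27 ± 0.242 and 2.67 ± 0.372 TPM, and MYCN was at most 0.21 TPM in any library. MGA, another partner of MAX, was at 7.28 ± 1.06 and 7.32 ± 0.262 TPM. MLXIPL, which encodes the MondoA relative ChREBP, was at 2.57 ± 0.489 and 1.70 ± 0.514 TPM (limma adjusted p = 0.257).

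**Figure D5:**
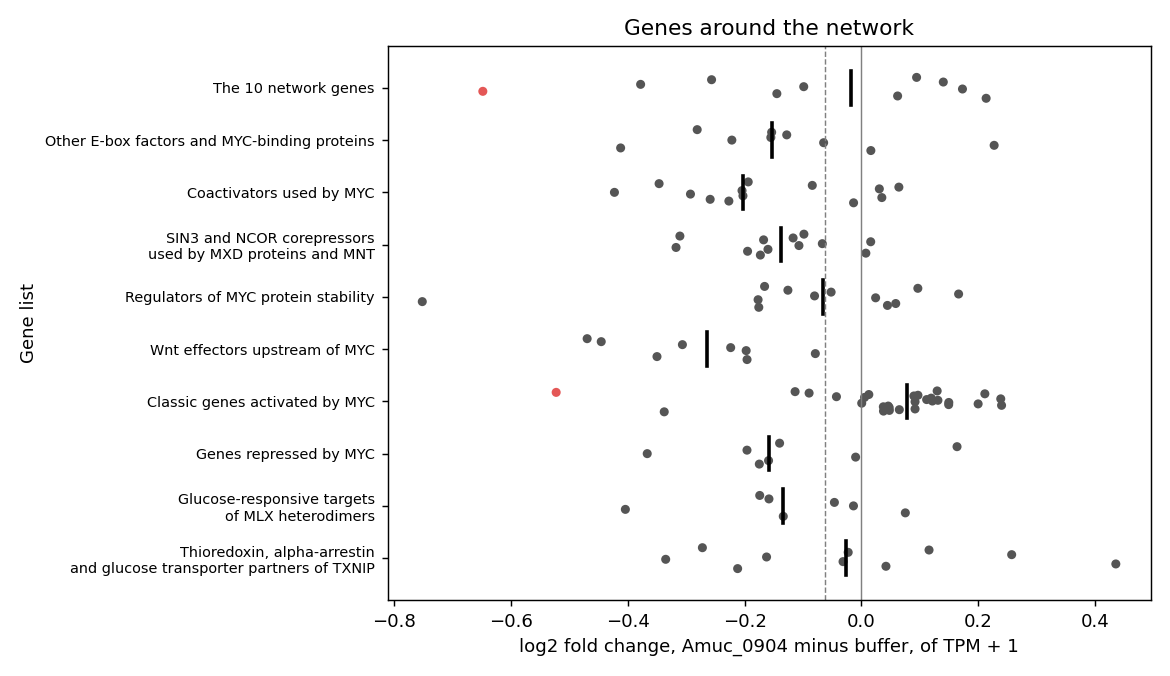
Log2 fold change (Amuc_0904 minus buffer) of each tested gene in the network and in the 9 lists around it; black bars are list medians, the dashed line is the median of all tested genes (-0.06) and red points have a limma adjusted p under 0.05. Red points are MXD3 and SLC7A5; classic MYC targets lie mostly to the right of 0 (median 0.08) and Wnt effectors to the left (median -0.27).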

How the data were processed

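The authors deposited 1 gene table in TPM, quantified with RSEM per the series' design text. Per the submitters' processing notes HISAT2, StringTie and edgeR were also used, without versions or roles, and a mouse build (GRCm38.p6) is named although the gene identifiers are human. No counts are given, so depth is unknown. Values were transformed to log2(TPM + 1), keeping genes that reached 1 TPM in 3 or more libraries, and compared as Amuc_0904 minus buffer in limma 3.58.1 (R 4.3.3; empirical Bayes with a trend, two-sided, Benjamini-Hochberg adjustment over 14421 genes, threshold 0.05). The workflow was tested on simulated data. For limma these were drawn independently for each gene without a GC trend, so that test does not bear on the trend. Ratios were compared by an exact permutation test. Errors are SD between libraries unless given as SE or as a 95% interval.

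The members and lists were chosen with earlier results of these data known. Named genes were the 10 members and, from each list, up to 3 genes past the threshold or, where none passed, the 2 with the highest mean; all others were chosen after their values were seen. Positions, GC content and length are from GENCODE 29 on GRCh38, which covered 99.0% of tested genes. Alternatives for the limma fits were another pseudocount, other filters, 5 other scalings, a replicate block and left-out libraries. Those for the ratios were left-out libraries, the log2 scale, a replicate block and, for the MYC share, added MYCN, MYCL and MGA. Figures used matplotlib 3.10.9.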

Additional observations from a re-analysis of the deposited data

How the results depend on the processing

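Network genes past the threshold numbered 0 in place of 1 without a filter on low TPM, with libraries centred on their median, after quantile normalization, after GC removal, and without buffer replicate 2 and Amuc_0904 replicate 3 together (an alternative chosen after seeing the data, since these libraries have the steepest opposite GC trends). They numbered 0 to 1 with single libraries left out. Over all genes 197 passed (53 rose, 144 fell), and 9 did without a filter, 432 with a filter of 5 TPM, 85 with centring (43 rose, 42 fell), 102 after quantile normalization (46 rose, 56 fell), 117 after GC removal (77 rose, 40 fell), 90 after length removal (46 rose, 44 fell), 13 without both named libraries, and 33 to 110 with single libraries left out. With ribosomal protein and mitochondrial genes left out, 53 rose and 92 fell.

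Same-numbered libraries did not deviate together (correlation of deviations from group means across genes -0.03, 0.08 and -0.09). With the replicate block 80 genes passed, MXD3 kept its call (limma adjusted p = 0.0338), and the MYC share gave p = 0.25 by an exact sign-flip test, the smallest that 3 pairs allow.

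The sign changed for values near 0. With single libraries left out the log2 fold change ranged from -0.0086 to 0.305 for MXD4, -0.212 to 0.0078 for MXI1, -0.0067 to 0.152 for TXNIP, -0.014 to 0.285 for NDRG1, -0.0572 to 0.020 for ACTL6A and -0.026 to 0.0538 for HDAC2. Centring gave ACTL6A 0.067, RBBP7 0.013 and CTNNB1 0.0015, and length removal gave them 0.045, 0.015 and 0.0079. ACTL6A was also at 0.0057 after quantile normalization and 0.013 without ribosomal protein and mitochondrial genes. GC removal gave TFE3 0.016, RUVBL2 0.089, HDAC2 -0.030 and STUB1 0.0995. Without both named libraries RUVBL2 was at 0.0024 and HDAC2 at -0.014. The cause was not tested. The 3 ratios kept their direction with single libraries left out, on the log2 scale and with the replicate block. The MYC share also did so with MYCN, MYCL and MGA added. The ratios were not run under the other scalings, so the GC trend was not removed from them. The MYC transcript is 53.9% GC, against 61.3% for MXD3 and 61.4% for MNT. The number of libraries, 3 in each group, and the unknown depth limit what could be detected for genes at a few TPM, such as MXD4.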

Other observations

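GSK3B, whose kinase marks MYC for degradation and which was named after its values were seen, was listed at 44.5, 19.3 and 46.0 TPM in buffer replicates 1 to 3 and at 20.02, 17.5 and 22.4 TPM in Amuc_0904 replicates 1 to 3. Buffer replicate 2 lay with the treated libraries, far below the other 2 buffer libraries. GSK3B did not pass over all libraries (limma estimate -0.75 on the log2 scale, SE 0.29, adjusted p = 0.192). Without buffer replicate 2 its log2 fold change was -1.15 (limma adjusted p = 0.0258). That value rests on leaving out a library after its level was seen and supports no difference between the groups.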
